A study of Homo sapiens with 12 samples.

Results

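Metallothionein genes, the zinc-sensing transcription factor that controls them and the main zinc exporter were followed across 4 groups of the human cell line ARPE-19, which derives from the retinal pigment epithelium (RPE), the pigmented layer behind the photoreceptors. The 9 genes were taken by symbol from a table of 40591 named lines: MT1A, MT1E, MT1F, MT1G, MT1M, MT1X, MT2A, MTF1 and SLC30A1. Of these, 6 passed the filter on low counts (MT1E, MT1F, MT1X, MT2A, MTF1 and SLC30A1) and could be tested among 15179 genes, while MT1A, MT1G and MT1M had too few reads.

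Poly(A) RNA was sequenced in 12 libraries, 3 for each of 4 groups. The label WT names ARPE-19 cells for which no open reading frame (ORF) is given. The labels GFP, GSTA4 and OSK name stable ARPE-19 lines after 4 days of ORF expression, of the fluorescent protein used here as the control, of glutathione S-transferase alpha 4, and of a set read here as the reprogramming factors POU5F1, SOX2 and KLF4. The promoter that drove each ORF, the number of clones behind each line and the culture of the WT cells are not given in the sources used here, so the effect of an ORF and other differences between lines cannot be told apart. Nothing says that the 3 libraries of a group came from separate cultures, so p-values measure the spread between these libraries, which may be technical.

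Total counts ran from 12630675 to 17045454 per library. The ORF genes fitted the group names: GSTA4 had at least 396 CPM in the GSTA4 libraries and at most 22.5 elsewhere, and POU5F1, SOX2 and KLF4 had at least 622 CPM in OSK and at most 2.67 elsewhere. CPM stands for a count scaled to a common library size, here with TMM factors that allow for differences in composition. Of 15 RPE markers 12 were tested, TYR, PMEL and MITF among them, whereas RPE65, DCT and TTR stayed at or below 0.64 CPM in every library. The summed level of the 15 was 2419 to 2658 CPM in WT, 2189 to 2523 in GFP, 1576 to 1648 in GSTA4 and 1401 to 1468 in OSK. The sum includes KRT8 and KRT18, which fell in GFP against WT (-0.57 and -0.46 on the log2 scale), while 9 of the 12 tested markers rose there (median 0.74). In GSTA4 against GFP 1 rose and 8 fell, and in OSK against GFP 1 rose and 11 fell. Of all tested genes, 22.2% were called (adjusted p under 0.05) in GFP against WT. The shares were 29.2% in GSTA4 against GFP and 45.9% in OSK against GFP. Of 6 fibroblast markers, 2 were tested, PDGFRB and COL1A1. COL1A1 stood at 122 CPM ± 27.3 (WT), 82.5 ± 2.12 (GFP), 4.52 ± 1.87 (GSTA4) and 20.9 ± 4.52 (OSK), and PDGFRB at 650 ± 38.5, 659 ± 36.2, 539 ± 12.7 and 342 ± 25.7 in the same order (SD, n = 3). The part of these marker levels in the results was not tested, and in bulk RNA fewer cells of a type and less RNA per cell cannot be told apart. None of 4 blood cell markers passed the filter. GFP replicate 1 had reads on 27349 named lines, against 19488 to 22073 in the other 11 libraries. WT replicate 1 stood apart within its group: chi-square over its degrees of freedom was 15 and 17.4 against the other WT libraries, which gave 2.54 between them. Without WT replicate 1, GFP against WT gave -0.87 for MT2A, -1.12 for MT1X, -0.91 for MT1E and -0.31 for MTF1, and 4 of the 6 tested genes were called, as with it. Without GFP replicate 1, the number called was 2 in GSTA4 against GFP, 4 in OSK against GFP and 3 in GFP against WT.

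Metallothioneins are small, cysteine-rich proteins of the cytosol that bind zinc and copper and also cadmium. Free zinc is sensed by MTF1, a zinc-finger factor that enters the nucleus and binds metal response elements in promoters, where it switches on the metallothionein genes and SLC30A1. SLC30A1 (ZnT1) sits in the plasma membrane and moves zinc out of the cell, so a rise of free zinc is buffered and exported at the same time. Metallothionein genes are also induced by glucocorticoids. The RPE is among the tissues of the eye that hold much zinc.

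The 7 metallothionein genes lie together on chromosome 16, from 56608199 to 56684196 (GRCh38, GENCODE 29), a stretch of 76 kb with 14 metallothionein genes and pseudogenes. MT2A lies at one end, at 56608199-56609497 on the forward strand, and MT1X at the other, at 56682424-56684196 on the forward strand. MT1E lies at 56625475-56627112 and MT1F at 56657694-56660698. MTF1 and SLC30A1 are on chromosome 1, at 37809567-37859620 and 211571568-211578742, both on the reverse strand. All 9 are protein-coding genes.

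Promoters are shown because MTF1 acts through them and because MT2A and MT1X fell in GSTA4 against GFP while SLC30A1 was not past the threshold. RefSeq promoters were at hand for 4 of the 9 genes, and the 250 bases before the RefSeq start are printed for 3 of them, 5′ to 3′ on the gene's strand, on GRCh38.p14. MT2A covers chr16:56608334-56608583, MT1X chr16:56682220-56682469 and SLC30A1 chr1:211579162-211579411 on the reverse strand. RefSeq and GENCODE 29 place these starts differently: the RefSeq start lies 385 bases downstream of the GENCODE start given above for MT2A and 46 bases downstream for MT1X, so the MT2A window lies within the GENCODE gene. For SLC30A1 it lies 419 bases upstream of the GENCODE start. Capitals mark each match to the core of the metal response element, TGCACNC or TGCGCNC, on either strand.
MT2A: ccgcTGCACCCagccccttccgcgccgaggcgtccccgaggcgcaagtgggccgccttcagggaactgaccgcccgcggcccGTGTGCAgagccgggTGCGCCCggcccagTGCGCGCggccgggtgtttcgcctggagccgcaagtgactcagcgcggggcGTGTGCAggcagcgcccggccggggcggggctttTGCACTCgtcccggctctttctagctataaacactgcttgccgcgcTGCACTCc
MT1X: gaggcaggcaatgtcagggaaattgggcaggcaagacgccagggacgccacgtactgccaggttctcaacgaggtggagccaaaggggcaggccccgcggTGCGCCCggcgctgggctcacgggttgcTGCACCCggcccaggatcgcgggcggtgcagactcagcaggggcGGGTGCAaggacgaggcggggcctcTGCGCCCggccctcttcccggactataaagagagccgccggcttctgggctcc
SLC30A1: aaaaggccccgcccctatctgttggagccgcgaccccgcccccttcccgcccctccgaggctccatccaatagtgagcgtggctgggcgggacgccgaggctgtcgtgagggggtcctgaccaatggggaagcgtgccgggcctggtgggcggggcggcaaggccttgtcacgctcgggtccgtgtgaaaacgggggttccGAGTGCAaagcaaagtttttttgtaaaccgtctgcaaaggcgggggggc

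The MT2A window held 7 matches, 5 on the gene's strand and 2 on the other, the nearest starting 8 bases before the RefSeq start. MT1X held 4 matches, 3 on its own strand, between 150 and 53 bases before its RefSeq start. SLC30A1 held 1, on the opposite strand, and the window of MTF1 itself held 0. Of other genes in the cluster, MT1H held 8 matches and had 0 reads in all libraries, and MT1B held 3 matches and had 2 reads in all, both in GFP libraries. No printed matches overlap each other. At least 1 match was found in 24.8% of 35116 promoter windows of this length, at least 4 in 0.37% and at least 7 in 0.0313%. These are matches of letters and say nothing of binding. No RefSeq promoter was at hand for MT1E or MT1F, whose log2 fold changes from GFP to GSTA4 were 0.05 and -0.18 (neither called). Whether the number of matches goes with a fall in GSTA4 was not tested.

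MT2A carried most metallothionein reads, and its level set WT and GSTA4 apart from the other groups. It had 117, 117 and 114 CPM in the WT libraries, 48.2, 66.8 and 73.4 in GFP, 31.9, 33.6 and 29.5 in GSTA4 and 51.2, 46.5 and 54.5 in OSK. Every WT library was thus above every library of the other groups, and every GSTA4 library below them, whereas GFP and OSK overlapped through GFP replicate 1. Group means were 116 CPM ± 2.07 in WT, 62.8 ± 13.1 in GFP, 50.7 ± 4.01 in OSK and 31.7 ± 2.07 in GSTA4 (SD, n = 3).

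**Figure D1:**
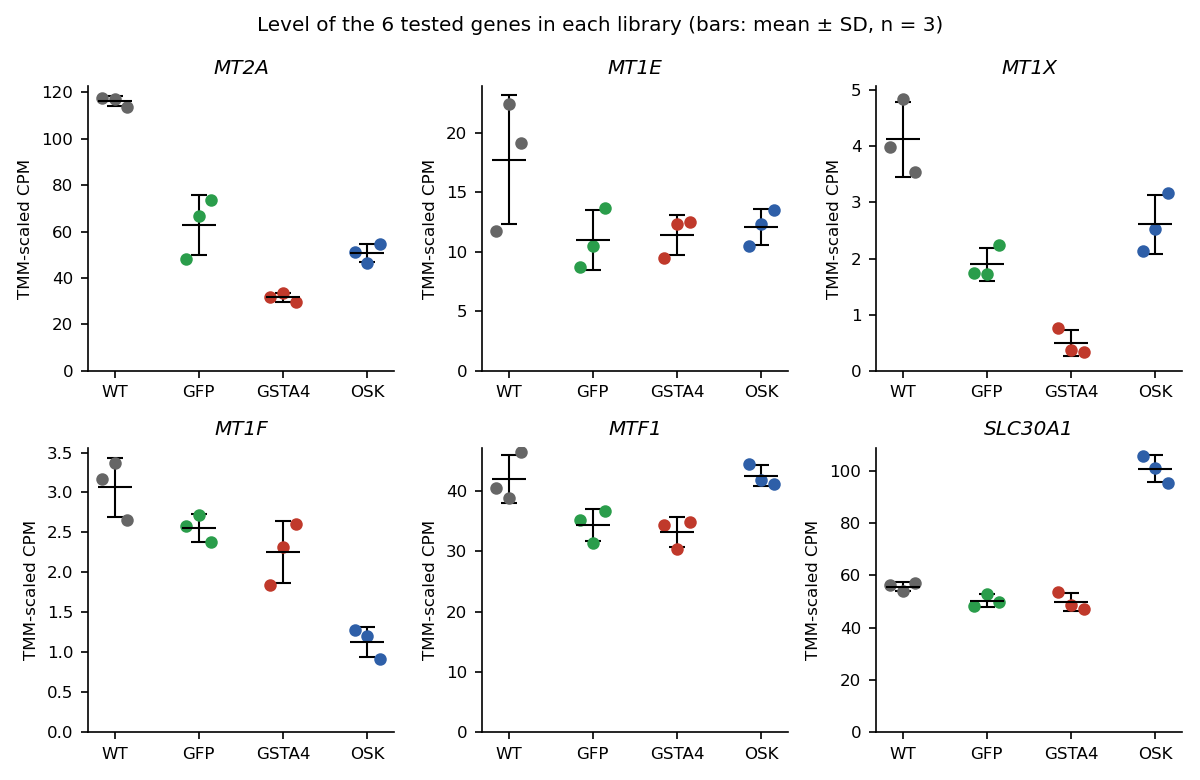
Level of each tested gene in the 12 libraries, in CPM on linear axes from 0, with 3 points per group and bars for the mean ± SD. MT2A and MT1X are lowest in GSTA4, MT1F is lowest in OSK, and SLC30A1 is highest in OSK, where all 3 libraries are above 95 CPM.

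In GSTA4 against GFP, MT2A fell by 0.99 on the log2 scale (SE 0.111, edgeR adjusted p 7.8e-07), to 0.503 of its GFP level. GFP was itself lower than WT, by a log2 difference of -0.88 (SE 0.104, adjusted p 5.82e-06), so that GSTA4 stood at 0.273 of WT. OSK against GFP gave a smaller difference of -0.31 (SE 0.107, adjusted p 0.0217). That call was lost without GFP replicate 2 (-0.27, adjusted p 0.0887), GFP replicate 3 (-0.18, adjusted p 0.178) or OSK replicate 2 (-0.25, adjusted p 0.105), and without GFP replicate 1 the value was -0.47. Over all alternatives its adjusted p ran from 0.000117 to 0.178. OSK lay above GSTA4 by 0.68 (SE 0.112, adjusted p 3.7e-05). The order of MT2A was therefore WT, GFP, OSK, GSTA4, and only the step between GFP and OSK was unsteady.

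MT1X, at the other end of the cluster, had fewer reads and a wider spread of fold changes. Its libraries had 3.98, 4.84 and 3.54 CPM in WT, 1.75, 1.72 and 2.24 in GFP, 0.762, 0.375 and 0.344 in GSTA4 and 2.13, 2.53 and 3.16 in OSK. The GSTA4 values rest on 12, 5 and 5 reads. The 3 GSTA4 libraries were below all 9 others, and the 3 WT libraries above all 9 others.

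From GFP to GSTA4, MT1X fell by 1.91 (SE 0.374, adjusted p 0.000577). From WT to GFP it fell by 1.1 (SE 0.285, adjusted p 0.0087). Against WT, the GSTA4 line held 0.124 of the level. OSK was above GSTA4 by 2.36 (SE 0.359, adjusted p 1.43e-05). The step from GFP to OSK was 0.45 (SE 0.296, adjusted p 0.227), and that from WT to OSK was -0.65 (SE 0.274, adjusted p 0.058). The latter lay near the threshold: its adjusted p ran from 0.0371 to 0.195 over the alternatives. In the order WT, OSK, GFP, GSTA4, only the last pair of neighbours was past the threshold.

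MT1E, the metallothionein with the next most reads, did not share the low level in GSTA4. It had 11.7, 22.4 and 19.1 CPM in WT, 8.73, 10.5 and 13.7 in GFP, 9.46, 12.3 and 12.5 in GSTA4 and 10.4, 12.3 and 13.5 in OSK. WT replicate 1 fell within the range of the ORF lines, and the 3 ORF lines overlapped one another. The differences were 0.05 (SE 0.204, adjusted p 0.885) in GSTA4 against GFP, 0.14 (SE 0.203, adjusted p 0.614) in OSK against GFP and 0.09 (SE 0.202, adjusted p 0.755) in OSK against GSTA4. Their sign turned with single libraries left out.

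Against WT, MT1E was lower in all 3 ORF lines, at 0.623 of the WT level in GFP (adjusted p 0.0166), 0.645 in GSTA4 (adjusted p 0.0141) and 0.685 in OSK (adjusted p 0.026). Each of these calls was lost without WT replicate 2, with adjusted p-values of 0.0954, 0.0986 and 0.172. The log2 fold change in OSK against WT then went from -0.55 to -0.35. The GFP call was also lost without GFP replicate 1 (adjusted p 0.0848) or GFP replicate 2 (0.0651), and the GSTA4 call without GSTA4 replicate 1 (0.0768). The OSK call was also lost without OSK replicate 1 (0.109), OSK replicate 2 (0.0574) or WT replicate 3 (0.0821). Across the alternatives these p-values spanned 1.89e-05 to 0.0954 for GFP, 5.11e-05 to 0.0986 for GSTA4 and 0.000149 to 0.172 for OSK.

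MT1F moved in OSK and not in GSTA4. Its libraries had 3.17, 3.37 and 2.65 CPM in WT, 2.58, 2.72 and 2.37 in GFP, 1.84, 2.32 and 2.61 in GSTA4 and 1.28, 1.2 and 0.913 in OSK. All 3 OSK libraries, with 18, 19 and 13 reads, were below the other 9. From GFP to OSK, MT1F fell by 1.17 (SE 0.291, adjusted p 0.00251), and it differed by -0.99 in OSK against GSTA4 (SE 0.294, adjusted p 0.00858). GSTA4 against GFP gave -0.18 (SE 0.268, adjusted p 0.658) and GFP against WT -0.26 (SE 0.259, adjusted p 0.523). The order was WT, GFP, GSTA4, OSK, with only the step to OSK past the threshold.

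**Figure D2:**
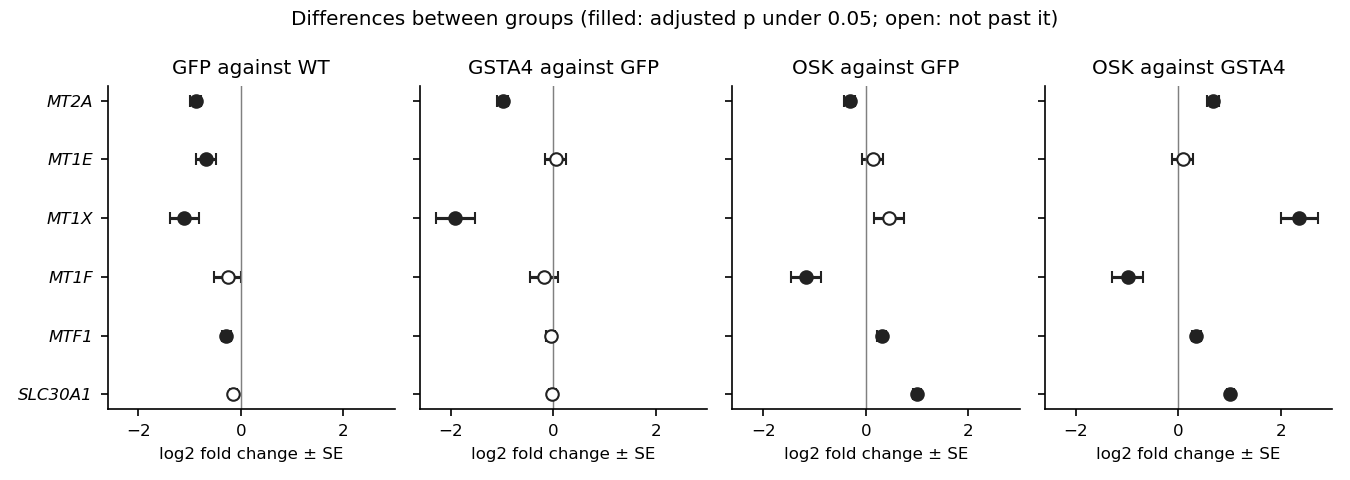
Log2 fold change of the 6 tested genes with its SE in 4 comparisons, with filled points for an adjusted p under 0.05. MT2A and MT1X lie left of 0 in GSTA4 against GFP while SLC30A1 lies at -0.02, and SLC30A1 lies at 1.00 in OSK against GFP while MT1F lies at -1.17.

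Summed over the 7 metallothionein genes, reads came to 141 CPM ± 5.85 in WT, 78.6 ± 15.3 in GFP, 66.6 ± 4.94 in OSK and 46.1 ± 2.58 in GSTA4 (SD, n = 3). The sum was 61.9 to 92 CPM in GFP and 62.7 to 72.2 in OSK, so these groups overlapped, while the highest GSTA4 library had 49 CPM and the lowest WT library 137. No test was made of a sum over genes chosen with results known. The makeup of the sum changed as well. MT2A gave 82.4% ± 3.43 of metallothionein reads in WT, 79.8% ± 1.86 in GFP, 76.1% ± 2.28 in OSK and 68.7% ± 3.59 in GSTA4. The share of MT1E went from 12.5% ± 3.44 in WT to 13.9% ± 1.07 in GFP, 18.1% ± 1.88 in OSK and 24.7% ± 3.13 in GSTA4. MT1X gave 1.08% ± 0.557 in GSTA4 and 3.9% ± 0.566 in OSK.

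Per kilobase of exon in GENCODE 29, the mean level of MT2A in GFP was 48.4 CPM, against 10.4 for MT1E, 1.36 for MT1F and 1.07 for MT1X. SLC30A1 had 9.2 and MTF1 4.28 on this scale. Exon length here joined all annotated transcripts of a gene and spanned the whole gene for MT2A (1299 bases) and MT1X (1773 bases). Where the reads come from a shorter mRNA, levels on this scale are too low. Metallothionein genes are close copies of one another, and a read that fits several may have been dropped or split. Of the 50-base stretches of all its annotated transcripts, MT1X shared 18.3% with other genes, MT1E 7.1%, MT2A 3.02% and MT1F 1.22%. By this measure the levels of MT1X are the least certain. The pool may include intron sequence of shorter transcripts, and the share for the spliced mRNA alone was not computed. That share may be higher for each of these genes. MT1G shared 16.5%, MT1M 9.87% and MT1A 5.76%.

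The remaining metallothioneins were near or under the limit of detection. MT1G had 2 reads in GFP replicate 1 and 0 in the other 11 libraries, where a count of 0 allows up to 0.177 to 0.225 CPM (3 reads, counting error only). MT1A had 1 read in each of GFP replicate 1, GSTA4 replicate 1 and OSK replicate 3, 3 reads in GSTA4 replicate 3 and 0 elsewhere. MT1M had 2, 0 and 3 reads in WT, 5, 2 and 4 in GFP, 1, 6 and 1 in GSTA4 and 1, 2 and 1 in OSK. Differences in these 3 genes were not detectable at this depth. Of 13 other metallothionein genes and pseudogenes none passed the filter, MT1H and MT1CP had 0 reads in all libraries, and the highest count in any library was 7, for MT1XP1 in WT replicate 1. GFP replicate 1 had reads on 9 of the 13, with 21 reads in all, against 0 to 10 reads in the other 11 libraries.

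MTF1, the zinc sensor, was higher in OSK than in GFP and GSTA4. It had 40.6, 38.9 and 46.4 CPM in WT, 35.2, 31.4 and 36.6 in GFP, 34.4, 30.4 and 34.8 in GSTA4 and 44.6, 41.9 and 41.2 in OSK. WT and OSK overlapped each other, GFP and GSTA4 overlapped each other, and all libraries of the former pair were above those of the latter. From GFP to OSK, MTF1 rose by 0.31 (SE 0.0887, adjusted p 0.00747), and it stood 0.36 higher in OSK than in GSTA4 (SE 0.0886, adjusted p 0.0022). GSTA4 against GFP gave -0.05 (SE 0.0901, adjusted p 0.723).

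GFP against WT gave -0.29 for MTF1 (SE 0.0885, adjusted p 0.0234), a call lost without GFP replicate 2 (adjusted p 0.122), without WT replicate 3 (0.126) or with only the 6 libraries compared (0.0584). Over all alternatives that adjusted p ran from 0.0113 to 0.126. OSK against WT gave 0.02 (SE 0.087, adjusted p 0.88), with a sign that turned with library size alone as the scaling and with single libraries left out. These are levels of MTF1 RNA, and the place or activity of the protein was not measured.

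SLC30A1, the zinc exporter, stood apart in OSK. Its libraries had 56.2, 53.9 and 57 CPM in WT, 48.2, 53 and 49.8 in GFP, 53.7, 48.5 and 47.1 in GSTA4 and 106, 101 and 95.5 in OSK. The OSK libraries were above all 9 others, and the other 3 groups lay between 47.1 and 57 CPM. SLC30A1 rose by 1.00 in OSK against GFP (SE 0.0702, adjusted p 2.85e-10), which is 2-fold, by 1.02 against GSTA4 (SE 0.0701, adjusted p 1.48e-10) and by 0.85 against WT (SE 0.0693, adjusted p 2.17e-09). GSTA4 and GFP differed by -0.02 (SE 0.0721, adjusted p 0.896). GFP and WT differed by -0.15 (SE 0.0715, adjusted p 0.154). Whether the metallothioneins moved with SLC30A1 depended on the gene and the comparison. In OSK against GFP, SLC30A1 rose, MT2A and MT1F fell and MT1E and MT1X were not past the threshold. The MT2A call there was lost in 3 of 19 alternatives. In OSK against GSTA4, MT2A (0.68) and MT1X (2.36) were higher along with SLC30A1, MT1F was lower (-0.99) and MT1E was not past the threshold.

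Counted over the 6 tested genes, GSTA4 against GFP gave 2 falls and 0 rises, where 29.2% of all tested genes were called, 14.7% as higher and 14.6% as lower. Libraries did not overlap for 2 of the 6, against 42.3% of all genes. OSK against GFP gave 2 rises and 2 falls, where 45.9% of all genes were called, 23.1% as higher and 22.8% as lower, and libraries did not overlap for 3 of the 6, against 54.7%. GFP against WT gave 4 falls and 0 rises, where 22.2% of all genes were called, 11% as higher and 11.2% as lower. Only 2 of those 4 falls were called without GFP replicate 2, and libraries did not overlap for 4 of the 6, against 34.6%.

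In OSK against GSTA4, 4 of the 6 were higher in OSK and 1 lower, where 47.8% of all genes were called, 24.1% as higher and 23.8% as lower. Libraries did not overlap for 5 of the 6, against 58%. GSTA4 against WT gave 4 falls and 0 rises, where 38.6% of all genes were called, 19.7% as higher and 19% as lower, and libraries did not overlap for 5 of the 6, against 49%. OSK against WT gave 1 rise and 3 falls, where 45.4% of all genes were called, 22.7% as higher and 22.7% as lower, and libraries did not overlap for 4 of the 6, against 53.5%. The median log2 fold change of the 6 genes was -0.12 in GSTA4 against GFP, 0.22 in OSK against GFP and -0.49 in GFP against WT, where the medians of all tested genes were 0.01, -0.02 and 0.01. With so few genes, shares near the background are no result about the set. GSTA4 against GFP, OSK against GFP and GFP against WT share the GFP libraries.

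Across the 12 libraries, MT2A and MT1X ran together (Pearson r 0.886 on log2(CPM + 1), Spearman rho 0.846). MT1F and SLC30A1 ran against each other by Pearson r (-0.848), less so by rank (rho -0.357). The r of MT2A and SLC30A1 was -0.03 (rho 0.35), and that of MT1X and SLC30A1 was 0.351 (rho 0.615). The libraries fall into 4 groups of 3, so these values mostly reflect the group means and are given as a description. The 5 genes outside the lists whose log2(CPM + 1) was most like that of the summed metallothioneins, among 13620 genes with a mean of at least 1 CPM, were DUSP23, KANK2, CD151, CAPN2 and SLC29A1, with r from 0.966 to 0.951 over 12 libraries. CAPN2, a calcium-dependent protease, was at 856 CPM ± 183 among WT libraries, 525 ± 26.2 among GFP, 272 ± 8.81 among GSTA4 and 395 ± 9.72 among OSK.

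Zinc handling beyond the members was described from fixed lists of transporters. SLC30A proteins move zinc out of the cytosol, and SLC39A (ZIP) proteins move it in. Of 9 other exporters 6 were tested: 0 were past the threshold in GSTA4 against GFP, where 1 was at an unadjusted p under 0.05 (SLC30A7, adjusted p 0.0508) and other alternatives, DESeq2 among them, called 0 or 1. In OSK against GFP 2 exporters rose and 1 fell, a share near the 45.9% of all genes called there. The median log2 fold change of the 6 was -0.01 in the former comparison and -0.02 in the latter. SLC30A5, which loads the secretory pathway with zinc, went from 42.6 CPM ± 1.93 in GFP to 55.5 ± 0.928 in OSK, or by 0.38 on the log2 scale (SE 0.073, adjusted p 0.000219). SLC30A6, its partner, rose by 0.30 (SE 0.104, adjusted p 0.0236). This call was lost in 4 of 19 alternatives. SLC30A4 fell by 0.49 (SE 0.122, adjusted p 0.00258).

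Of 14 importers 11 were tested, with 3 rises and 2 falls in OSK against GFP (median log2 fold change 0.20) and 1 rise and 2 falls in GSTA4 against GFP (median -0.04). Both shares are near those of all genes called, 45.9% and 29.2%. SLC39A8 (ZIP8), a plasma membrane importer of zinc, manganese and iron, had 224 CPM ± 33.2 in OSK against 40.3 ± 5.04 in WT, 38.5 ± 3.87 in GFP and 35.5 ± 1.16 in GSTA4. The rise from GFP to OSK was 2.54 on the log2 scale (SE 0.103, adjusted p 4.99e-14), or 5.82-fold, and in OSK against GSTA4 2.66 (SE 0.104, adjusted p 1.54e-14). SLC39A7 (ZIP7), which releases zinc from the endoplasmic reticulum, went from 121 CPM ± 4.74 in GFP to 195 ± 13.8 in OSK, a rise of 0.69 (SE 0.0599, adjusted p 7.26e-09). In OSK against GFP, exporters SLC30A1, SLC30A5 and SLC30A6 and importers SLC39A8, SLC39A7 and SLC39A9 (0.20) were higher. Exporter SLC30A4 (-0.49) and importers SLC39A13 (-0.43) and SLC39A6 (-0.19) were lower.

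In GSTA4 against GFP the importers moved by less. SLC39A6 (ZIP6) fell by 0.49 (SE 0.0656, adjusted p 8.34e-06), from 102 CPM ± 6.33 to 72.4 ± 4.12. SLC39A10 (ZIP10), a gene that MTF1 is known to repress, rose by 0.45 (SE 0.105, adjusted p 0.00281), from 39.9 CPM ± 1.56 to 54.5 ± 3. Its level in OSK was 41.9 CPM ± 2.07, lower than in GSTA4 by 0.38 on the log2 scale (log2 fold change -0.38, SE 0.105, adjusted p 0.00488). In WT, SLC39A10 had 48.2 CPM ± 10, and GSTA4 against WT was not past the threshold (0.18, SE 0.103, adjusted p 0.192). The part of MTF1 in these levels was not tested. SLC39A13 (ZIP13) fell in both lines, by 0.26 in GSTA4 (adjusted p 0.00467) and by 0.43 in OSK (adjusted p 1.88e-05). Both comparisons use the same GFP libraries.

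**Figure D3:**
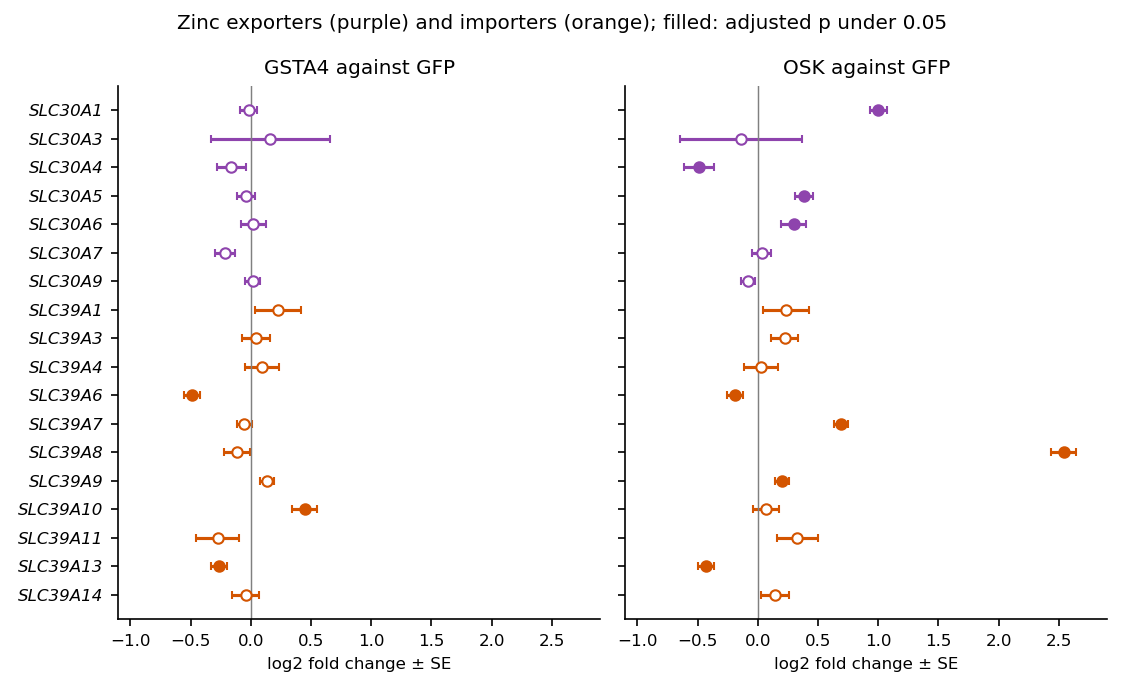
Log2 fold change with SE of the tested zinc exporters (SLC30A) and importers (SLC39A) in GSTA4 against GFP and in OSK against GFP, with filled points for an adjusted p under 0.05. SLC39A8 lies at 2.54 and SLC30A1 at 1.00 in OSK, and neither is past the threshold in GSTA4.

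Copper, which metallothioneins also bind, was covered by 14 genes, of which 13 were tested. In OSK against GFP 6 rose and 1 fell (median log2 fold change 0.21), where 45.9% of all genes were called. SLC31A1 (CTR1), the main copper importer, went from 52.1 CPM ± 0.907 in GFP to 80.3 ± 7.9 in OSK, a rise of 0.62 (SE 0.0711, adjusted p 3.87e-07), and CUTC rose by 0.87 (adjusted p 8.38e-06). ATP7B, a copper-exporting ATPase, fell by 0.69 (SE 0.0912, adjusted p 3.03e-06). For GSTA4 set against GFP (median 0.09), 3 rose and 0 fell: the copper chaperones COX17 (0.40, adjusted p 0.0277) and ATOX1 (0.32, adjusted p 0.0351), and the metalloreductase STEAP3 (0.24, adjusted p 0.0421). The share of all tested genes called in this comparison was 29.2%, so the count is no result about copper genes as a set. Of 19 alternatives, 3 lost the call of COX17, 5 that of ATOX1 and 10 that of STEAP3, DESeq2 among the last. The count of copper genes called in GSTA4 against GFP ran from 0 to 4 over the alternatives. Leaving out GFP replicate 1, any GSTA4 library or OSK replicate 1 moved that count by more than 1.5 times.

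Iron handling was covered by 14 genes, of which 13 were tested. In GSTA4 against GFP 3 rose and 4 fell (median log2 fold change -0.05), and in OSK against GFP 3 rose and 7 fell (median -0.19). The shares of all genes called were 29.2% and 45.9%. TFRC, the transferrin receptor that brings iron in, fell by 0.61 in GSTA4 (SE 0.0754, adjusted p 3.11e-06), from 236 CPM ± 7.22 to 155 ± 9.55. The ferritin chains parted: FTL, the light chain, rose by 0.35 there (SE 0.065, adjusted p 0.000378), and FTH1, the heavy chain, fell by 0.49 (SE 0.103, adjusted p 0.00117). SLC40A1 (ferroportin), the iron exporter, fell by 0.88 (adjusted p 0.000592), and NCOA4, which delivers ferritin to lysosomes, rose by 0.26 (SE 0.0519, adjusted p 0.000589). SLC40A1 was highest in GFP, at 18.9 CPM ± 1.94, with 11.3 ± 2.4 in WT, 10.2 ± 2.51 in GSTA4 and 9.08 ± 1.47 in OSK. OSK against GFP gave -1.06 for SLC40A1 (adjusted p 4.8e-05). GSTA4 against WT gave -0.14 for SLC40A1 (adjusted p 0.576), -0.13 for FTH1 (adjusted p 0.332) and 0.28 for FTL (adjusted p 0.00205). In OSK, SLC25A37 and SLC25A28, the mitoferrins that carry iron into mitochondria, rose by 1.57 (SE 0.0655, adjusted p 6.74e-14) and 0.92 (SE 0.102, adjusted p 2.78e-07). FTH1 fell in OSK as well, by 0.63 (SE 0.104, adjusted p 3.99e-05), and its reads may be shared with its many pseudogenes.

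Genes known to be induced by glucocorticoids, another input to the metallothionein genes, were mostly higher in OSK than in GFP, and some were lower in GSTA4. Of 12 listed genes 11 were tested. In OSK against GFP 10 rose and 0 fell (median log2 fold change 1.00), in GSTA4 against GFP 0 rose and 5 fell (median -0.32), and in OSK against GSTA4 10 were higher in OSK and 0 lower (median 1.25). In GFP against WT 0 rose and 7 fell (median -0.56), and in OSK against WT 6 rose and 0 fell (median 0.59). The shares of all tested genes called in these comparisons were 45.9%, 29.2%, 47.8%, 22.2% and 45.4%, in the same order. The WT level of some listed genes was unsteady, as for TSC22D3 (71.5 CPM ± 33.7). KLF9, a transcription factor, was at 299 CPM ± 20.8 in OSK, 175 ± 3.57 in WT, 125 ± 1.9 in GFP and 94.6 ± 2.05 in GSTA4. It fell by 0.40 in GSTA4 against GFP (SE 0.0595, adjusted p 2.89e-05) and rose by 1.26 in OSK against GFP (SE 0.0584, adjusted p 4e-13). In GSTA4, GLUL (glutamine synthetase) fell by 0.39 and ERRFI1, an inhibitor of EGFR signalling, by 0.62. The kinase SGK1 rose by 1.26 in OSK, where its difference in GSTA4 was 0.00 (adjusted p 0.982).

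The 5 that fell in GSTA4 against GFP were FKBP5, TSC22D3, KLF9, ERRFI1 and GLUL, and the other 6 had values from -0.32 to 0.20. MT2A fell in GFP against WT and in GSTA4 against GFP. In OSK it was not higher than in GFP or WT, and it was higher than in GSTA4 (0.68). The part of glucocorticoids in the level of MT2A was not tested. Many of the listed genes also respond to other signals, and hormone levels in the medium are not given in the sources used here.

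**Figure D4:**
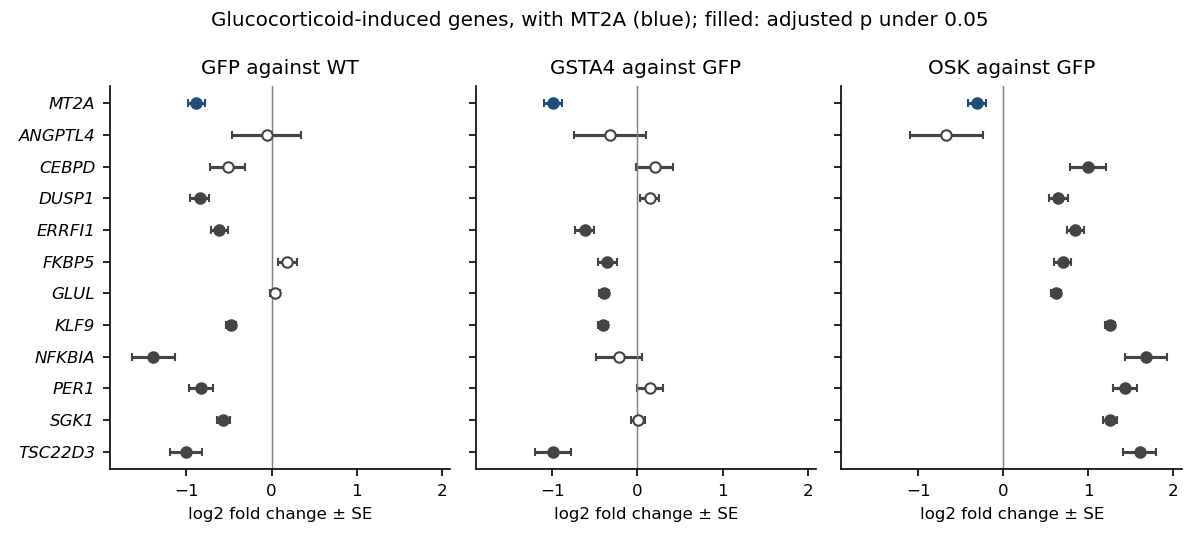
Log2 fold change with SE of the 11 tested glucocorticoid-induced genes and of MT2A in GFP against WT, GSTA4 against GFP and OSK against GFP, with filled points for an adjusted p under 0.05. In OSK 10 of the 11 lie right of 0 and past the threshold, while MT2A lies at -0.31.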

How the data were processed

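The authors deposited 1 table of raw read counts per gene for the 12 libraries, in whole numbers whose totals differ. Per the submitters' processing notes, STAR 2.7.1a and featureCounts 1.6.2 were used and GRCh38, hg38, GRCm38 and mm10 are named without a role. The annotation release, strand setting and handling of reads that fit several genes are not given in the sources used here. Lines with no symbol, 0.485% to 0.822% of reads, were left out. Groups came from the sample titles.

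Counts were tested with edgeR 4.0.16 (limma 3.58.1, R 4.3.3) using quasi-likelihood fits, with TMM scaling and the filterByExpr filter. A single fit over all 12 libraries gave each group a mean, with 8 residual degrees of freedom. Two-sided p-values received a Benjamini-Hochberg adjustment over 15179 genes within each of 6 comparisons, with 0.05 as the threshold. SE is the log2 fold change over the root of F. CPM used TMM-scaled library sizes.

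The members, the lists and the comparisons were chosen with earlier results of these data known. The text names all 9 members, up to 3 genes per list with the lowest adjusted p in GSTA4 or OSK against GFP and a mean of at least 1 CPM, and the 5 genes most like the summed metallothioneins. Other genes (markers, MT1B, MT1H, MT1CP, MT1XP1, SLC39A9, SLC40A1, FKBP5 and TSC22D3) were named after their values were seen. Libraries of a group differed by more than sampling noise, so none was taken as a duplicate. The alternatives tried were DESeq2 1.42.0 in place of edgeR, RLE factors or plain library sizes in place of TMM, a filter at a mean of 1 CPM or none, a replicate block, each library left out, and fits on only the 6 libraries compared.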

Additional observations from a re-analysis of the deposited data

How the results depend on the processing

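Over 19 alternatives for each member and comparison, no call changed direction. Differences that were not past the threshold turned sign in 13 cases. With library size alone, MTF1 in OSK against WT was -0.0485. With single libraries left out, MT1E in GSTA4 against GFP ran from -0.0869 (without GFP replicate 1) to 0.246, and was also -0.00542 without GSTA4 replicate 2 and -0.0225 without GSTA4 replicate 3. MT1E in OSK against GFP ran from -0.000224 (without GFP replicate 1) to 0.332, and in OSK against GSTA4 from -0.0362 (without GSTA4 replicate 1) to 0.189. SLC30A1 in GSTA4 against GFP ran from -0.0752 to 0.0228 (without GFP replicate 2), and was also 0.0021 without GSTA4 replicate 2 and 0.022 without GSTA4 replicate 3. MTF1 in GSTA4 against GFP ran from -0.112 to 0.00924 (without GSTA4 replicate 2). MTF1 in OSK against WT ran from -0.0319 (without WT replicate 2) to 0.0992, and was also -0.0121 without OSK replicate 1 and -0.00691 without WT replicate 1. The number of members past the threshold stayed at 2 in GSTA4 against GFP and 5 in OSK against GSTA4. With each library left out in turn it ran from 3 to 4 in OSK against GFP, from 2 to 4 in GFP against WT (2 without GFP replicate 2), from 3 to 4 in GSTA4 against WT and from 3 to 5 in OSK against WT. The cause was not tested. With the replicate number as a block, the counts were 2 in GSTA4 against GFP, 4 in OSK against GFP, 4 for GFP against WT and 5 for OSK against GSTA4. The labels do not say that a number marks a shared batch. Correlations of same-numbered libraries ran from -0.03 to 0.18 and were not all over 0.1 in any comparison, so the numbers were not taken as pairs, although 8 of 12 libraries matched best a library of their own number. For GFP set against WT, the block raised the zinc importers past the threshold from 3 to 5. In GSTA4 against GFP the copper genes past the threshold ran from 0 to 4 (3 as reported) and the other zinc exporters from 0 to 1 (0 as reported). Depth limits MT1X and MT1F, whose lowest libraries had 5 and 13 reads, and gives no test for MT1A, MT1G and MT1M.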
